A study of Mus musculus with 15 samples.

Results

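The Bex and Tceal gene family was followed through yolk sac erythro-myeloid progenitors (EMPs) in which the histone methyltransferase gene Ezh2 had or had not been deleted. Its 7 members, Bex1, Bex2, Bex4, Bex6, Ngfrap1 (also named Bex3), Tceal1 and Tceal8, were taken by gene name, and the family was chosen on RPKM values already known to differ between Tie2-Ezh2-KO and WT libraries. They were 7 of the 17454 genes measured, and all 7 were found. Because that comparison led to the choice, the members' values in it are described without a test.

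Bex (brain expressed X-linked) and Tceal (transcription elongation factor A-like) genes encode small proteins that arose as a cluster on the X chromosome of placental mammals. The Tceal proteins are named for their likeness to the elongation factor TFIIS. Ngfrap1 encodes a protein that binds the intracellular part of the p75 neurotrophin receptor, and BEX2 has been described in a complex with the haematopoietic transcription cofactor LMO2.

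EMPs are definitive progenitors that bud from yolk sac endothelium and give rise to erythroid, megakaryocytic and myeloid cells. They were sorted as KIT, CD41 and CD16/32 positive cells lacking SCA1 and lineage markers at E10.5, each library coming from the yolk sac of 1 C57BL/6 embryo. All embryos carried floxed Ezh2 on both alleles, and Cre removes the exons of the catalytic SET domain. The 5 Tie2-Ezh2-KO libraries (replicates 7, 9, 11, 13 and 17) came from embryos with Tie2-Cre, which acts in endothelium before EMPs emerge. The 5 Vav-Ezh2-KO libraries (replicates 1, 9, 10, 26 and 28) came from embryos with Vav-iCre, which acts in haematopoietic cells once they have emerged. The WT libraries were Ezh2-floxed embryos without Cre, 3 from Tie2-Ezh2 crosses (replicates 4, 10 and 12) and 2 from Vav-Ezh2 crosses (replicates 4 and 6), and these 5 served both knockouts as controls. Levels are RPKM, reads per kilobase of gene scaled to the reads of the library. The number of reads assigned to genes ran from 10407398 in Tie2-Ezh2-WT 4 to 41025074 in Tie2-Ezh2-WT 12, with a median of 1.60918e+07.

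The targeted gene was measured first. Ezh2 stood at 36.9, 39.5 and 30.1 RPKM in Tie2-Ezh2-WT 4, 10 and 12 and at 42.0 and 41.5 RPKM in Vav-Ezh2-WT 4 and 6. It stood at 27.8, 26.2, 24.8, 29.5 and 26.5 RPKM in Tie2-Ezh2-KO 7, 9, 11, 13 and 17, and at 33.7, 42.4, 37.8, 38.1 and 34.0 RPKM in Vav-Ezh2-KO 1, 9, 10, 26 and 28. Every Tie2-Ezh2-KO library lay below every WT library, while Vav-Ezh2-KO and WT overlapped. The log2 difference was -0.48 for Tie2-Ezh2-KO (limma adjusted p = 0.0418), a call kept without Tie2-Ezh2-KO 9 or 13 or Tie2-Ezh2-WT 12 and lost without any 1 of the other 7 libraries (limma adjusted p from 0.0760 to 0.126). It was also lost against the Tie2-Ezh2-WT libraries only (log2 difference -0.39, limma adjusted p = 0.344) and without the libraries lacking Y-linked reads (-0.44, limma adjusted p = 0.333). The same held by limma-voom (adjusted p = 0.0817), with a Y-linked covariate (limma adjusted p = 0.0532) and by limma without trend (adjusted p = 0.0923). A value for the whole gene checks the labels poorly, because the rest of the transcript can still be made. The 8 EMP markers listed (such as Kit, Itga2b and Runx1) all averaged at least 1 RPKM, with a summed level of 619 ± 49.1 RPKM (SD, n = 5) in WT, and Ly6a, which encodes SCA1, was at 0.405 ± 0.355 RPKM (SD, n = 5).

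In WT EMPs the family spanned a wide range of levels. Ngfrap1 was the most abundant member at 133 ± 23.4 RPKM (SD, n = 5), and over all 15 libraries its mean ranked 852 of 17454 genes. Bex4 followed at 37.9 ± 4.88 RPKM, Tceal8 at 28.5 ± 8.30 RPKM and Bex1 at 23.6 ± 6.76 RPKM (SD, n = 5 each). Bex2 came next at 14.2 ± 1.93 RPKM, Bex6 at 10.6 ± 2.22 RPKM and Tceal1 at 1.51 ± 0.557 RPKM (SD, n = 5 each). Ngfrap1 was the highest and Tceal1 the lowest member in each of the 15 libraries. Between them, each member's WT range overlapped that of its neighbour in this order, so that the ranks of Bex4, Tceal8, Bex1, Bex2 and Bex6 were not separated step by step. Inside single WT libraries, however, Bex4 lay above Bex1 and Bex1 above Bex2 in all 5.

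Bex2 showed the widest gap between Tie2-Ezh2-KO and WT. Its level was 16.1, 13.9 and 16.2 RPKM in Tie2-Ezh2-WT 4, 10 and 12 and 12.4 and 12.2 RPKM in Vav-Ezh2-WT 4 and 6. In Tie2-Ezh2-KO 7, 9, 11, 13 and 17 Bex2 read 52.6, 50.4, 51.2, 36.5 and 46.8 RPKM. All 5 Tie2-Ezh2-KO libraries were high, none came near the WT range, and replicate 13 was the lowest of them. In Vav-Ezh2-KO 1, 9, 10, 26 and 28 Bex2 read 12.5, 24.6, 28.2, 22.4 and 20.2 RPKM. Replicate 1 lay inside the WT range and the other 4 lay above it, yet all 5 stayed below every Tie2-Ezh2-KO library. The mean log2 difference of Bex2 between Tie2-Ezh2-KO and WT was 1.73, a 3.32-fold difference on the log2(RPKM + 0.2) scale. These values rest on 151 to 882 reads per library. In bulk RNA, a larger share of cells carrying a transcript and more transcript per cell cannot be told apart.

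Bex1, a gene expressed in neurons and linked to p75 neurotrophin receptor signalling, was the other member for which Tie2-Ezh2-KO and WT separated. It stood at 24.5, 18.6 and 26.5 RPKM in Tie2-Ezh2-WT 4, 10 and 12 and at 15.6 and 32.8 RPKM in Vav-Ezh2-WT 4 and 6. In Tie2-Ezh2-KO 7, 9, 11, 13 and 17 it stood at 50.002, 62.9, 36.9, 41.7 and 53.7 RPKM. The WT libraries were more spread than for Bex2, and the lowest Tie2-Ezh2-KO library (replicate 11) still lay above the highest WT library (Vav-Ezh2-WT 6). In Vav-Ezh2-KO 1, 9, 10, 26 and 28 Bex1 stood at 24.7, 32.4, 31.03, 32.8 and 28.5 RPKM, in the upper part of the WT range, with replicate 26 barely above its top. The mean log2 difference of Bex1 between Tie2-Ezh2-KO and WT was 1.07, or 2.10-fold.

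Bex4 had another order of groups. It read 33.5, 37.9 and 45.9 RPKM in Tie2-Ezh2-WT 4, 10 and 12 and 34.3 and 38.0 RPKM in Vav-Ezh2-WT 4 and 6. In Tie2-Ezh2-KO 7, 9, 11, 13 and 17 Bex4 read 51.3, 63.0, 40.0, 46.9 and 56.3 RPKM. There 4 of 5 libraries lay above all WT libraries and replicate 11 fell inside the WT range. In Vav-Ezh2-KO 1, 9, 10, 26 and 28 Bex4 read 55.5, 77.9, 70.8, 50.3 and 66.4 RPKM. All 5 Vav-Ezh2-KO libraries lay above the highest WT library, and the knockout groups overlapped each other, with means of 64.2 ± 11.2 RPKM in Vav-Ezh2-KO and 51.5 ± 8.78 RPKM in Tie2-Ezh2-KO (SD, n = 5 each). The log2 difference between Tie2-Ezh2-KO and WT was 0.43, or 1.35-fold.

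The other 4 members differed little between the groups relative to their spread. Ngfrap1 ranged from 113 to 172 RPKM in WT, from 139 to 179 RPKM in Tie2-Ezh2-KO and from 145 to 173 RPKM in Vav-Ezh2-KO. Tceal8 ranged from 20.1 to 39.9 RPKM in WT, from 24.1 to 32.7 RPKM in Tie2-Ezh2-KO and from 24.9 to 38.2 RPKM in Vav-Ezh2-KO. Both knockout groups thus overlapped WT for these 2 genes. Bex6 ranged from 8.50 to 13.9 RPKM in WT, from 5.72 to 11.3 RPKM in Tie2-Ezh2-KO and from 5.14 to 10.6 RPKM in Vav-Ezh2-KO. Tceal1, with 11 to 83 reads per library, ranged from 0.724 to 2.08 RPKM in WT, from 0.914 to 2.97 RPKM in Tie2-Ezh2-KO and from 0.863 to 1.67 RPKM in Vav-Ezh2-KO. The Tceal1 libraries of Tie2-Ezh2-KO were the most uneven, with replicates 9 and 17 above all WT libraries and replicates 7 and 11 near the bottom of the WT range. The mean log2 differences between Tie2-Ezh2-KO and WT were 0.21 for Ngfrap1, -0.17 for Bex6, 0.16 for Tceal1 and 0.08 for Tceal8, and the signs of the last 3 changed with the choice of WT libraries or when single libraries were left out.

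**Figure D1:**
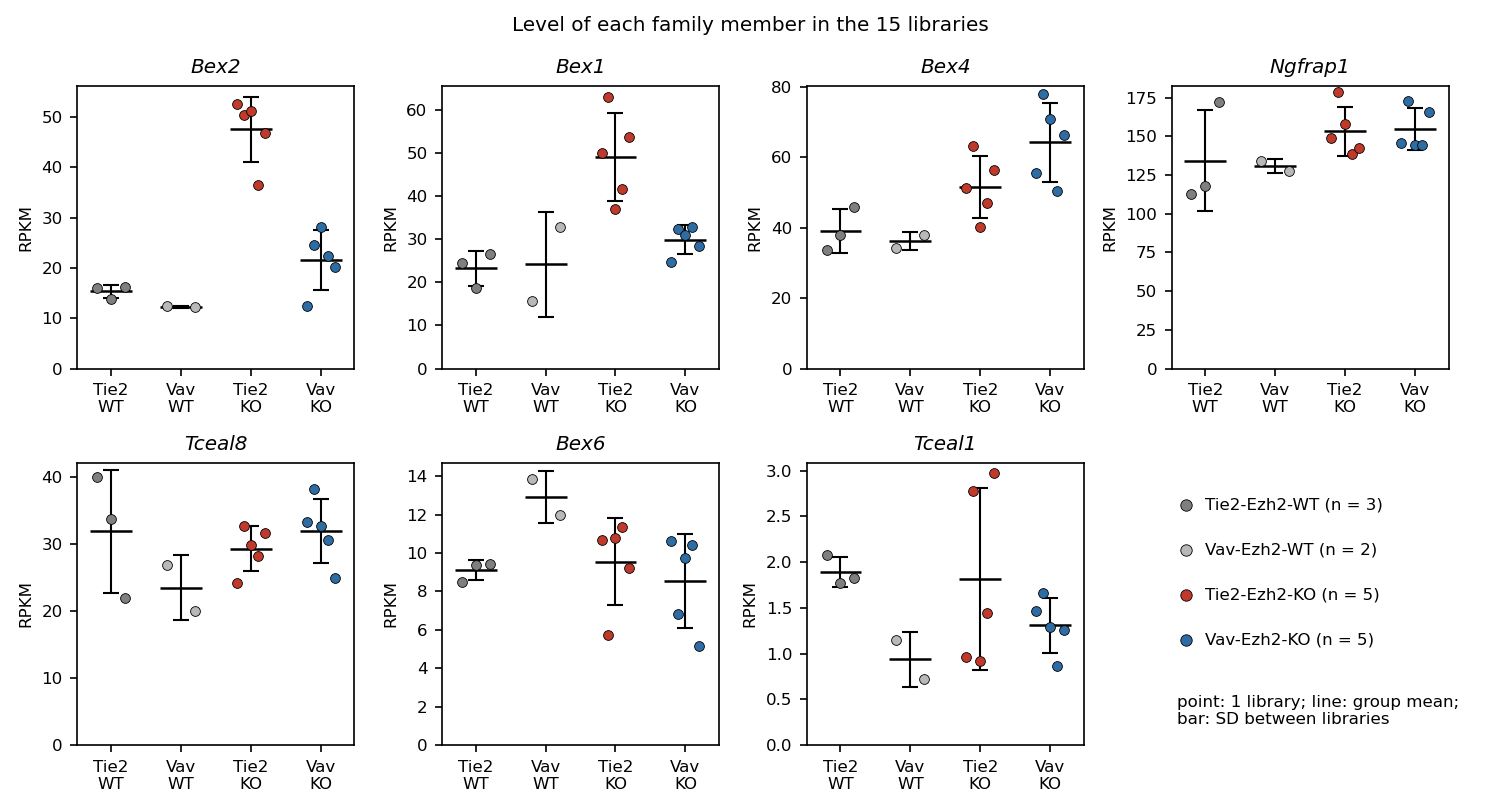
RPKM of each member (vertical axis, from 0, own scale per panel) in 3 WT libraries of the Tie2-Ezh2 crosses, 2 of the Vav-Ezh2 crosses and the 5 libraries of either knockout; each point is 1 library, the horizontal line the group mean and the bar the SD between libraries. The Tie2-Ezh2-KO points of Bex2 (36.5 to 52.6) and Bex1 (36.9 to 62.9) lie above all WT points, and the Vav-Ezh2-KO points of Bex4 (50.3 to 77.9) lie above all WT points.

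Over the family, 2 of 7 members (Bex1 and Bex2) were higher in all 5 Tie2-Ezh2-KO libraries than in all 5 WT libraries, a pattern held by 466 of 14154 genes (3.29%). Over all genes, limma called 386 of 14154 (2.73%) in this comparison, which is the background for the genes outside the family below. Nothing is read about the members from these counts, since this comparison led to the choice of the family. All 7 members passed the filter on low values. Their median log2 difference was 0.21, with 6 of 7 above 0, beside a median of 0.01 and 51.9% above 0 over all genes tested.

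The relative levels of the 3 X-linked genes Bex1, Bex2 and Bex4 also differed between groups. Bex2 was 0.320 to 0.480 times Bex4 in WT and 0.225 to 0.444 times Bex4 in Vav-Ezh2-KO, but 0.777 to 1.28 times Bex4 in Tie2-Ezh2-KO. The Tie2-Ezh2-KO ratios lay above all others, and in replicates 7 and 11 Bex2 was the second most abundant member, above both Bex4 and Bex1. Bex1 was 0.455 to 0.863 times Bex4 in WT, 0.416 to 0.652 times in Vav-Ezh2-KO and 0.889 to 0.999 times in Tie2-Ezh2-KO, close to parity in all 5 libraries of the last group. The ratio of Bex2 to Bex1 ran from 0.371 to 0.798 in WT, from 0.801 to 1.39 in Tie2-Ezh2-KO and from 0.505 to 0.907 in Vav-Ezh2-KO. Summed over the 7 members, the family reached 249 ± 25.1 RPKM in WT, 342 ± 33.7 RPKM in Tie2-Ezh2-KO and 312 ± 27.6 RPKM in Vav-Ezh2-KO (SD, n = 5 each). Ngfrap1 made up 53.1% of that sum on average in WT, 44.9% in Tie2-Ezh2-KO and 49.6% in Vav-Ezh2-KO.

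**Figure D2:**
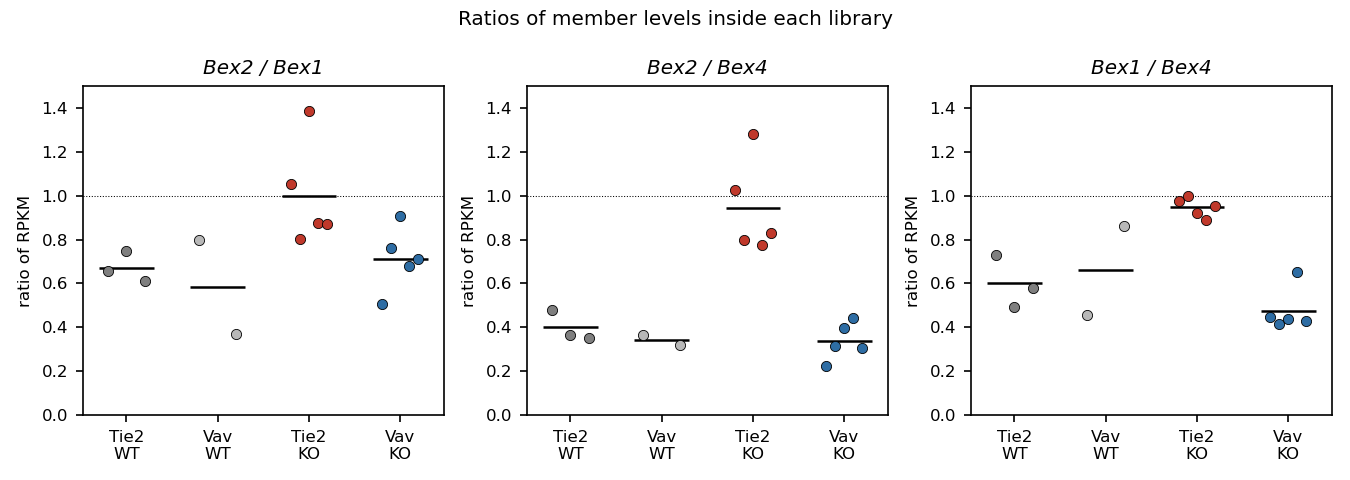
Ratio of RPKM (vertical axis, no unit) of Bex2 to Bex1, Bex2 to Bex4 and Bex1 to Bex4 within each library of the 4 groups; each point is 1 library, the solid line the group mean and the dotted line a ratio of 1. The Bex2 to Bex4 points of Tie2-Ezh2-KO (0.777 to 1.28) lie above those of WT (0.320 to 0.480) and Vav-Ezh2-KO (0.225 to 0.444).

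The reads of these genes may be split between close relatives. The 75-base windows of the longest annotated transcript of each member were searched in the transcripts of other genes. Of these windows, 38.3% in Bex4, 26.8% in Bex1, 14.5% in Bex2 and 10.01% in Ngfrap1 occurred letter for letter in a transcript of another gene. Bex4 shared windows with Bex1 and Tceal7 among others, Bex1 with Bex2, Bex4 and Tceal7, and Bex2 with Bex1 and Ngfrap1. Reads of 75 bases that fall there have more than 1 possible origin, and the authors kept 1 alignment per read, so the levels and ratios of these 4 genes carry that uncertainty. Bex6, Tceal1 and Tceal8 shared 0 such windows.

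The Vav-Ezh2-KO libraries allowed a test, although the WT libraries in it also served the comparison that led to the choice. For Bex4 the log2 difference between Vav-Ezh2-KO and WT was 0.75 with an SE of 0.13, a 1.68-fold difference on the log2(RPKM + 0.2) scale, with 5 of 5 knockout libraries above all WT libraries. The two-sided exact permutation test gave p = 0.00794, the smallest that the 252 divisions of 5 and 5 libraries can give. Adjusted over all 13646 genes by limma, p was 0.130 (unadjusted 3.24e-05), so Bex4 did not pass the threshold. For Bex2 the log2 difference was 0.56 with an SE of 0.18, with 4 of 5 libraries above all WT libraries (exact permutation p = 0.0397, limma adjusted p = 0.542). For Bex1 it was 0.38 with an SE of 0.17, with 1 of 5 libraries above all WT libraries (exact permutation p = 0.103, limma adjusted p = 0.623). The exact tests were run for all 7 members. Ngfrap1 had a log2 difference of 0.23 and Tceal8 one of 0.20, with exact permutation p = 0.0873 and 0.381. Bex6 had a log2 difference of -0.34 and Tceal1 one of -0.13, with exact permutation p = 0.206 and 0.643. Tceal1 turned to 0.41 with the corresponding WT libraries only and to 0.13 without the libraries lacking Y-linked reads, while Bex6 was -0.63 with the corresponding WT libraries only and -0.17 without Vav-Ezh2-KO 28.

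By limma, 0 of 7 members passed the adjusted threshold in Vav-Ezh2-KO, where 1 of 13646 genes did (0.00733%), and 3 of 7 had an unadjusted p below 0.05 (Bex4, Bex2 and Bex1) beside 1082 of all genes. limma-voom on reads recovered from the RPKM values also called 0 members. Bex4 was the 1 member of 7 with all knockout libraries above all WT libraries, a pattern held by 82 of 13646 genes (0.601%). The median log2 difference of the members was 0.23, with 5 of 7 above 0, beside a median of -0.02 and 47.1% above 0 over all genes tested. Both comparisons use the same 5 WT libraries, so a high or low WT value moves both. Side by side, the log2 differences in Tie2-Ezh2-KO, then in Vav-Ezh2-KO, were 1.73 and 0.56 for Bex2, 1.07 and 0.38 for Bex1, and 0.43 and 0.75 for Bex4. Whether the effects of the 2 knockouts on a member differ was not tested, because the first of them led to the choice.

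Of the 7 members, 6 lie on the X chromosome and Bex6 on chromosome 16, at chr16:32179800-32186944 (GRCm38.p6). Bex2 (chrX:136066565-136068236), Bex4 (chrX:136138996-136140443), Tceal8 (chrX:136168984-136172251), Bex1 (chrX:136213972-136215513) and Ngfrap1 (chrX:136270253-136271978) follow one another, and Tceal1 (chrX:136707982-136709873) lies farther along. Bex2 and Bex1, the members with the widest Tie2-Ezh2-KO differences, have Bex4 and Tceal8 between them. The 4 measured genes that lie among the members but outside the list were Tceal3, Tceal5, Tceal7 and Wbp5, and 0 of the 3 tested passed the threshold by limma in either comparison. Their unadjusted p was not below 0.05 in either.

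Among the 5 other Bex and Tceal genes measured, Wbp5 (also named Tceal9) was abundant, at 63.0 ± 9.99 RPKM in WT, 68.0 ± 14.2 RPKM in Tie2-Ezh2-KO and 68.3 ± 6.88 RPKM in Vav-Ezh2-KO (SD, n = 5 each). Tceal3, Tceal5, Tceal6 and Tceal7 had at most 2, 9, 1 and 5 reads in any library.

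With 10 measured genes on either side, 24 genes neighboured the X-linked members, of which 19 were tested in Tie2-Ezh2-KO. Of these, 1 passed the threshold there, Arxes1, which lies next to Bex2 at chrX:136033367-136034946. Arxes1 stood at 3.47, 4.003 and 5.35 RPKM in Tie2-Ezh2-WT 4, 10 and 12, at 2.59 and 3.71 RPKM in Vav-Ezh2-WT 4 and 6, and at 8.02, 9.77, 12.3, 8.56 and 9.20 RPKM in Tie2-Ezh2-KO 7, 9, 11, 13 and 17. Its Vav-Ezh2-KO values, 3.29 to 4.58 RPKM, lay within the WT range. The log2 difference between Tie2-Ezh2-KO and WT was 1.30 with an SE of 0.21 (limma adjusted p = 0.00249, higher in 5 of 5 libraries), a call lost without the 3 of these libraries that lacked Y-linked reads (log2 difference 1.21, limma adjusted p = 0.0585). Against the same 5 WT libraries its log2 difference in Vav-Ezh2-KO was 0.05. With each knockout set against the WT libraries of its own crosses, the 2 effects on Arxes1 differed by 0.83 on the log2 scale and did not pass the threshold (limma adjusted p = 0.582).

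**Figure D3:**
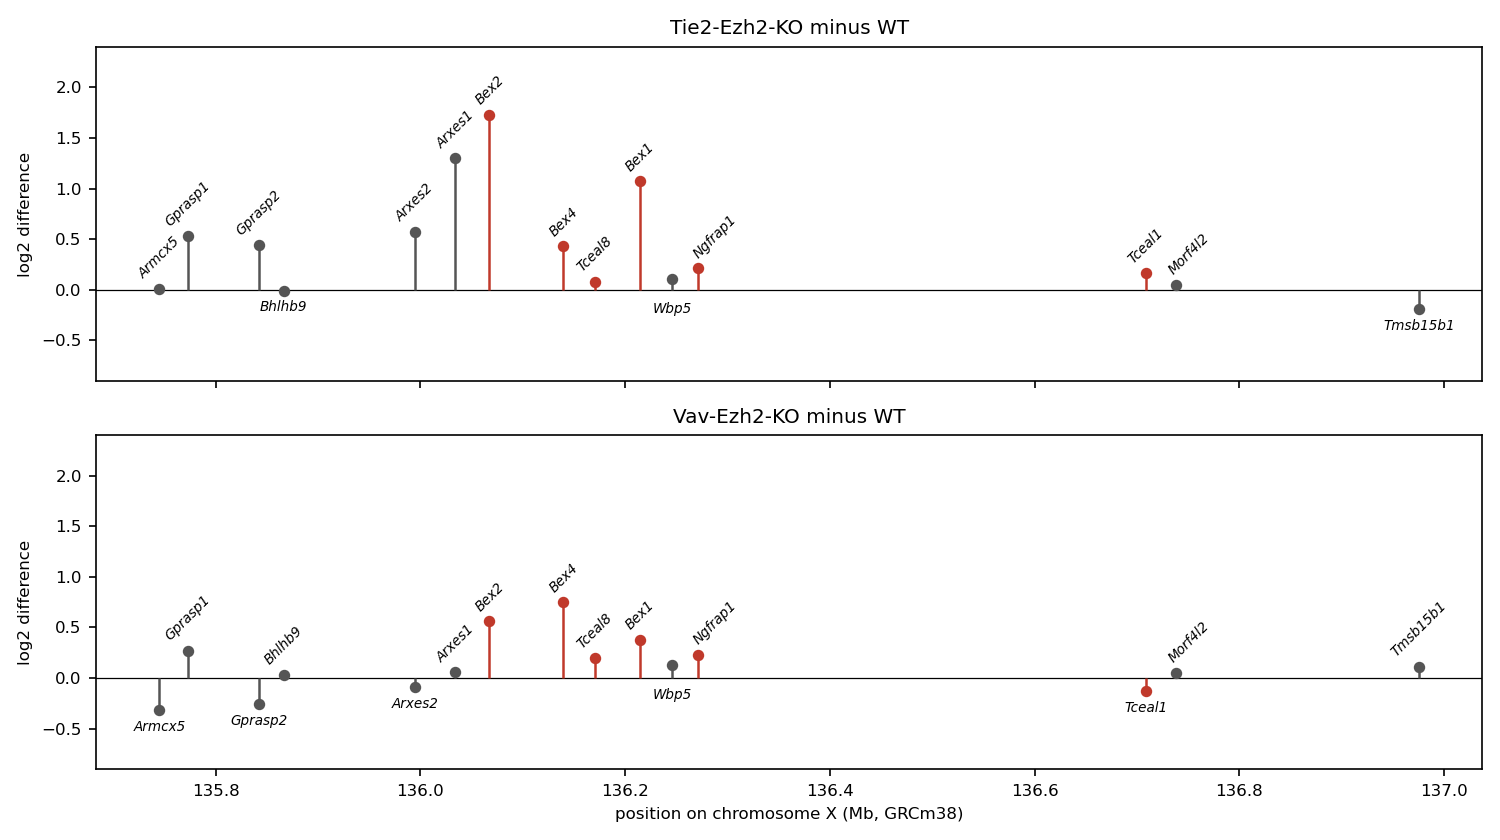
Log2 difference in RPKM between knockout and WT (vertical axis) for members (red) and neighbouring genes with a mean of at least 1 RPKM (grey), by position on chromosome X in Mb (horizontal axis), above for Tie2-Ezh2-KO and below for Vav-Ezh2-KO, which share the WT libraries. In the upper panel Bex2 (1.73), Arxes1 (1.30) and Bex1 (1.07) stand highest with Bex4 (0.43) and Tceal8 (0.08) lying between Bex2 and Bex1, and in the lower panel Bex4 (0.75) stands highest.

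Promoter windows of 300 bases (250 before and 50 after each RefSeq gene start, GRCm38.p6) were matched for all 7 members. Of the 7 promoters, 4 formed 2 pairs with long shared stretches, and those of Bex6, Tceal1 and Tceal8 had no such partner. Those of Bex1 and Bex4 had 288 of 294 aligned bases identical (98.0%), with an unbroken shared stretch of 271 bases. Those of Bex2 and Ngfrap1 had 223 of 263 aligned bases identical (84.8%) with a shared stretch of 162 bases. No other pair of members shared more than 14 bases in a row. The part of each shared stretch that lies before the starts of both genes is printed once per pair, 5′ to 3′, to show what the paired promoters have in common, with the letters TGACG in capitals. The first is from Bex4 at chrX:136138769-136138989 on the plus strand and is carried letter for letter by Bex1 at chrX:136215514-136215734 on the minus strand. The second is from Bex2 at chrX:136068237-136068381 on the minus strand and is carried by Ngfrap1 at chrX:136270071-136270215 on the plus strand.
Bex4: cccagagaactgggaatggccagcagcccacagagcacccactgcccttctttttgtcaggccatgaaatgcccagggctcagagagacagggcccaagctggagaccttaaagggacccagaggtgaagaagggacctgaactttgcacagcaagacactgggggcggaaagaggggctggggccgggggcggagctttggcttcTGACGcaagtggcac
Bex2: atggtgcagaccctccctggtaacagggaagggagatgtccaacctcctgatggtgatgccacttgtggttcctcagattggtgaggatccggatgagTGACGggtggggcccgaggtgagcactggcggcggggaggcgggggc

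Motifs were searched on both strands, and a match, or its absence, describes the letters of these windows only. GATAA was in 0 of 7 member promoters (25.4% of all 32851 RefSeq promoters) and CCGGAA in 0 of 7 (14.9%). CANNTG was in all 7 (72.3% of all promoters), TGTGGT in Bex2, Ngfrap1 and Bex6 (16.8%) and TATAAA in Bex2 (13.6%). The members' windows held from 3 (Bex6) to 13 (Ngfrap1) CG dinucleotides beside a median of 7 over all promoters. After the sequences had been read, a further set of letters was searched. CACGTGAC, which contains CACGTG and so also a match to CANNTG, was in 5 of 7 members (Bex1, Bex4, Ngfrap1, Tceal1 and Tceal8) beside 2.25% of all promoters, and CACGTG alone was in the same 5 beside 7.15%. In all 5 it followed TGACG within 12 bases, an arrangement found in 27 of 32851 promoters (0.0822%). Of these 27, 11 were on the X chromosome, which held 1223 of the 32851 promoters. The 27 include these 5 members, from whose sequences the arrangement was composed and of which Bex1 and Bex4 are near-copies, and they include Tceal6 and 2 starts of Tceal3. Without Bex and Tceal genes 19 remained, 3 of them on the X chromosome. These were Armcx6, Armcx4 and B230119M05Rik, and the windows of Armcx4 and B230119M05Rik lie close together. Bex2 and Bex6 lacked it. The part of these letters in the members' levels was not tested. The windows of 30 bases that hold the arrangement, at or near the gene starts, are shown 5′ to 3′ with TGACG and CACGTGAC in capitals. They lie at chrX:136215505-136215534 (minus strand) for Bex1, chrX:136138969-136138998 (plus) for Bex4, chrX:136270262-136270291 (plus) for Ngfrap1, chrX:136707963-136707992 (plus) for Tceal1 and chrX:136172223-136172252 (minus) for Tceal8.
Bex1: ggcttcTGACGcaagtggCACGTGACtagc
Bex4: ggcttcTGACGcaagtggCACGTGACtagc
Ngfrap1: gcagTGACGcagggccctCACGTGACccgg
Tceal1: gctgTGACGcgctcccctCACGTGACcagg
Tceal8: cattgaTGACGcgatcctCACGTGACcagc

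Within the family, Bex1 and Bex2 were the most alike pair over the 15 libraries, with Pearson's r = 0.855 and Spearman's rho = 0.80 of log2(RPKM + 0.2). Bex4 was most like Ngfrap1 (r = 0.697, rho = 0.696), while r was 0.462 for Bex1 and Bex4. Among 9879 genes with a mean of at least 1 RPKM, those most like Bex2 were Cenpv (r = 0.938, rho = 0.929), H2-Ab1 (r = 0.935), Tex40 (r = 0.925), Crip2 (r = 0.922) and Kdelr3 (r = 0.919). The 15 points fall into the study's groups, and a gene that is high in the Tie2-Ezh2-KO libraries as Bex2 is will have a high r, so the values describe likeness across these libraries and nothing further. Kdelr3, which encodes a receptor retrieving proteins to the endoplasmic reticulum, was at 0 in all 5 WT libraries and at 2.90 to 4.93 RPKM in Tie2-Ezh2-KO. Cenpv stood at 49.8 ± 11.8 RPKM in WT, 145 ± 19.96 RPKM in Tie2-Ezh2-KO and 64.0 ± 10.2 RPKM in Vav-Ezh2-KO (SD, n = 5 each).

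Partners and relatives of the family were mostly not past the threshold. Of the TFIIS genes 0 of 3 tested passed by limma in either comparison, with Tcea1 highest at 102 ± 20.6 RPKM in WT, and of the GASP and Armcx genes, most of which lie in the same region of the X chromosome, 0 of 10 passed, with Armc10 highest at 36.6 ± 4.72 RPKM (SD, n = 5). Of the 13 neurotrophin and p75 receptor genes tested in Tie2-Ezh2-KO, none besides the receptor gene Sorcs2 passed the threshold. Sorcs2 was at 0.46 RPKM there, with a log2 difference of 1.48 that ran from 0.49 with a pseudocount of 1 to 5.06 by limma-voom. Sorcs2 had 0 reads in 4 of 5 WT libraries and was at 0.128 RPKM in Tie2-Ezh2-WT 12. It therefore passed the filter on low values through Tie2-Ezh2-KO libraries alone, and no test is read for it. With 0 reads in all 5 Vav-Ezh2-KO libraries it was not among the 9 genes of the list tested there. Irak1 was the highest of that list at 96.5 ± 19.5 RPKM in WT. Of the Lmo2 complex genes 1 of 9 tested was higher in Tie2-Ezh2-KO, Lmo1 (log2 difference 1.59, limma adjusted p = 0.0410), a call kept without Tie2-Ezh2-KO 11, Tie2-Ezh2-WT 4 or Vav-Ezh2-WT 4 or 6 and lost without any 1 of the other 6 libraries (limma adjusted p from 0.0587 to 0.0932). The Lmo1 call was also lost without the libraries lacking Y-linked reads (limma adjusted p = 0.113), by limma-voom (adjusted p = 0.0649) and by limma without trend (adjusted p = 0.0751). The same held with a Y-linked covariate (limma adjusted p = 0.0650), quantile normalization (0.0522) and no filter beyond a value above 0 (0.0936). Lmo2, whose product has been described with BEX2, was at 196 ± 18.8 RPKM in WT, 186 ± 18.1 RPKM in Tie2-Ezh2-KO and 203 ± 13.1 RPKM in Vav-Ezh2-KO (SD, n = 5 each). In Vav-Ezh2-KO limma called 0 genes of any list.

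Some genes of other cell types also differed in the Tie2-Ezh2-KO libraries. Of the neuronal genes 2 of 7 tested were higher, Map1b (log2 difference 2.92, limma adjusted p = 0.000118) and Tubb3 (log2 difference 1.79, limma adjusted p = 0.0314). With a pseudocount of 1 the log2 differences were 1.56 and 1.098, and that of Map1b was 4.54 by limma-voom. The Tubb3 call was kept without Tie2-Ezh2-KO 9 or Vav-Ezh2-WT 4 or 6 and lost without any 1 of the other 7 libraries (limma adjusted p from 0.0516 to 0.0845). It was also lost without the libraries lacking Y-linked reads (log2 difference 1.12, limma adjusted p = 0.237). The same held by limma without trend (adjusted p = 0.0510) and with no filter beyond a value above 0 (limma adjusted p = 0.0757). Summed over the 11 neuronal genes measured, of which Gap43 was the highest, the level was 2.30, 2.57 and 2.09 RPKM in Tie2-Ezh2-WT 4, 10 and 12, 3.32 and 3.00 RPKM in Vav-Ezh2-WT 4 and 6, and 7.69, 11.4, 10.7, 12.3 and 7.76 RPKM in Tie2-Ezh2-KO 7, 9, 11, 13 and 17. In Vav-Ezh2-KO 1, 9, 10, 26 and 28 it was 1.07, 2.79, 3.40, 1.94 and 1.001 RPKM. The neuronal sum was thus high in all 5 Tie2-Ezh2-KO libraries.

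Of the primitive erythroid genes 2 of 4 were higher in Tie2-Ezh2-KO, the embryonic globin genes Hba-x (log2 difference 6.33, limma adjusted p = 8.88e-05; by limma-voom log2 difference 6.38, adjusted p = 0.0787) and Hbb-bh1 (log2 difference 1.18, limma adjusted p = 0.0441). The Hbb-bh1 call was kept without Tie2-Ezh2-KO 13 or 17 and lost without any 1 of the other 8 libraries (limma adjusted p from 0.0535 to 0.101). It was also lost against the Tie2-Ezh2-WT libraries only (limma adjusted p = 0.246) and without the libraries lacking Y-linked reads (limma adjusted p = 0.118). The same held by limma-voom (adjusted p = 0.0852) and by limma without trend (adjusted p = 0.118). Scaling to a common median (limma adjusted p = 0.0556) or no filter beyond a value above 0 (0.114) ended it too. Summed over the 4 genes of the list, the level was 149, 131 and 147 RPKM in Tie2-Ezh2-WT 4, 10 and 12, 71.3 and 121 RPKM in Vav-Ezh2-WT 4 and 6, and 316, 588, 861, 198 and 289 RPKM in Tie2-Ezh2-KO 7, 9, 11, 13 and 17. In Vav-Ezh2-KO 1, 9, 10, 26 and 28 it was 88.0, 128, 63.9, 158 and 157 RPKM.

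Of the visceral endoderm genes 1 of 7 tested was higher in Tie2-Ezh2-KO, Amn (log2 difference 3.01, limma adjusted p = 0.00155). Its log2 difference was 1.51 with a pseudocount of 1 and 5.78 by limma-voom. Summed over the 8 genes measured, with Apoa1 the highest, the level was 151, 3.65 and 1.60 RPKM in Tie2-Ezh2-WT 4, 10 and 12, 3.83 and 5.95 RPKM in Vav-Ezh2-WT 4 and 6, 224, 10.99, 5.01, 5.41 and 12.6 RPKM in Tie2-Ezh2-KO 7, 9, 11, 13 and 17, and 2.59, 5.24, 3.75, 3.12 and 1.92 RPKM in Vav-Ezh2-KO 1, 9, 10, 26 and 28. Tie2-Ezh2-WT 4 and Tie2-Ezh2-KO 7 stood apart. The log2 difference of Bex2 was 1.78 without the first and 1.69 without the second, and that of Bex1 was 1.10 and 1.06. Of the megakaryocyte genes 1 of 8 tested was lower in Tie2-Ezh2-KO, Gp1ba, which encodes a platelet glycoprotein (log2 difference -0.94, limma adjusted p = 0.0495), a call kept without Tie2-Ezh2-KO 13 or Tie2-Ezh2-WT 12 and lost without any 1 of the other 8 libraries (limma adjusted p from 0.0640 to 0.146). The Gp1ba call was also lost against the Tie2-Ezh2-WT libraries only (limma adjusted p = 0.231) and without the libraries lacking Y-linked reads (limma adjusted p = 0.404). The same held by limma-voom (adjusted p = 0.162), with a Y-linked covariate (limma adjusted p = 0.0804) and by limma without trend (adjusted p = 0.0641). A pseudocount of 1 (limma adjusted p = 0.0605) or no filter beyond a value above 0 (0.0802) ended it too. The lists for EMPs (0 of 8), endothelium (0 of 7, Pecam1 highest), mesenchyme (0 of 4, Pdgfrb highest) and macrophages (0 of 7, Cd68 highest and C1qa at 0 in all libraries) held no gene past the threshold. Pecam1 was nevertheless below all 5 WT libraries (15.4 to 22.5 RPKM) in all 5 Tie2-Ezh2-KO libraries (6.67 to 13.8 RPKM). Its log2 difference was -0.62 (limma adjusted p = 0.150). The endothelium list as a set did not share this direction. The median log2 difference of its 7 tested genes in Tie2-Ezh2-KO was 0.38. Its summed level averaged 40.6 ± 4.82 RPKM over the Tie2-Ezh2-KO libraries, beside 40.2 ± 2.41 RPKM for WT (SD, n = 5 each). The part of these other cell types in the Bex values was not tested.

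Because most members are X-linked, the sex of the embryos was read from Y-linked genes. The 4 libraries Tie2-Ezh2-WT 4 and 10, Tie2-Ezh2-KO 11 and Vav-Ezh2-KO 28 had 0 reads on the Y-linked genes listed, and the other 11 had a summed 40.9 to 56.5 RPKM. In WT, Bex2 ran from 13.9 to 16.1 RPKM in the libraries without Y-linked reads and from 12.2 to 16.2 RPKM in those with them. Bex4 ran from 33.5 to 37.9 RPKM without and from 34.3 to 45.9 RPKM with such reads. Tceal8 was at 33.8 to 39.9 RPKM in the 2 WT libraries without and at 20.1 to 26.9 RPKM in the 3 with Y-linked reads, with no overlap. Ngfrap1 (113 to 118 RPKM without, 128 to 172 RPKM with) did not overlap in WT either. Nor did Bex6 (8.50 to 9.39 RPKM without, 9.45 to 13.9 RPKM with). Both genes were lower without such reads. Sex and cross were partly mixed in WT, as only Tie2-Ezh2-WT 12 had Y-linked reads among Tie2-Ezh2-WT, and all Vav-Ezh2-WT had them. Bex6 in Tie2-Ezh2-WT 12 (9.45 RPKM) lay next to Tie2-Ezh2-WT 10 (9.39 RPKM), below Vav-Ezh2-WT 4 and 6 (13.9 and 11.98 RPKM). Ngfrap1 (172 RPKM) and Tceal8 (21.9 RPKM) in Tie2-Ezh2-WT 12 stood apart from Tie2-Ezh2-WT 4 and 10. In the knockouts Ngfrap1 overlapped, at 158 beside 139 to 179 RPKM in Tie2-Ezh2-KO and 166 beside 145 to 173 RPKM in Vav-Ezh2-KO. So did Bex6 (10.8 beside 5.72 to 11.3 RPKM) and Tceal8 (29.8 beside 24.1 to 32.7 RPKM) in Tie2-Ezh2-KO. Tie2-Ezh2-KO 11 was the lowest of its group for Bex1 (36.9 RPKM), Bex4 (40.0406 RPKM) and Tceal1 (0.914 RPKM), and Vav-Ezh2-KO 28 the lowest of its group for Bex6 (5.14 RPKM) and Tceal8 (24.9 RPKM). The part of sex or of cross in these values was not tested.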

How the data were processed

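RNA-seq of E10.5 yolk sac EMPs was measured in 15 libraries, grouped by their labels. The authors amplified cDNA with 16 PCR cycles, sequenced 75-base single-end reads, aligned them with TopHat2 2.0.13 to GRCm38 (mm10), counted with featureCounts and deposited RPKM per gene. No column was left unused (0 columns of values). The RPKM of all 16877 genes above 0 in any library lay within 4.07e-10 reads of whole numbers of reads, once a length had been chosen for each gene, which gave the reads per gene and library. The p-values measure the spread between embryos, and PCR reads without molecular identifiers are not independent molecules. The labels do not assign libraries to the separate experiments of the study, so no batch term could be fitted, and experiment and group cannot be told apart.

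Values were log2(RPKM + 0.2), for genes that exceeded 0.2 RPKM in 1 or more of the libraries fitted, and were fitted with limma 3.58.1 (R 4.3.3, trend) on the 2 groups compared, with Benjamini-Hochberg adjustment over all genes tested at 0.05. For named genes outside the members, the difference of the 2 knockout effects was fitted on all 15 libraries. Of 14394 genes, 26 passed in that fit (0.181%). Members in Vav-Ezh2-KO were also tested by two-sided exact permutation (numpy 2.4.6), and Spearman's rho was computed with scipy 1.17.1.

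Named genes were the members, the genes of each list past the threshold (at most 6) and its most abundant gene, X-linked neighbours past the threshold, and the 5 genes most like the member with the widest Tie2-Ezh2-KO difference. Members and lists were chosen with earlier results of these data known. Alternatives were other pseudocounts, filters, scalings, weights, a fit of all libraries, corresponding WT libraries only, a Y-linked covariate, limma-voom on recovered reads and each library left out. Leaving out the libraries without Y-linked reads, and the alternatives for the difference of effects, were chosen after seeing the data. Promoter sequences and positions came from RefSeq (GRCm38.p6) and transcripts from GENCODE. Protein sequences were not analysed here. The summed level and most abundant gene of 1 marker list are not reported here.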

Additional observations from a re-analysis of the deposited data

Results flagged for a closer look

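Tie2-Ezh2-WT 12 stood far from the other WT libraries in the summed level of the 7 members, at 294 RPKM beside 234 to 244 RPKM in the other 4. Its gap to the next library was 0.834 of the whole WT range. In all, 24 groups were searched in this way, and chance marks about 1 in 20 groups. Most of that excess was Ngfrap1, at 172 RPKM there, and this library was also the deepest.

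For 2 genes outside the family, both named because they passed the threshold in Tie2-Ezh2-KO, the 2 knockout effects differed in the fit of all 15 libraries, in which each knockout is set against its own WT group. The difference of effects was 3.82 on the log2 scale for Tubb3 (limma adjusted p = 0.00669), and it passed the threshold without each of the 15 libraries in turn (limma adjusted p from 0.00282 to 0.0401). It was 6.41 for Hba-x (limma adjusted p = 0.0457), kept in 4 of 15 such fits (limma adjusted p from 0.0252 to 0.390), those without Tie2-Ezh2-KO 7 or 13 or Vav-Ezh2-KO 9 or 26. With a pseudocount of 1 the difference for Tubb3 was 2.16 (limma adjusted p = 0.00545). For Kdelr3 the difference of effects was 3.49, or 1.95 with a pseudocount of 1, but this gene was named for its likeness to Bex2 over the same 15 libraries and had 0 reads in all 5 WT libraries, so no test is read for it. In Tubb3 the Vav-Ezh2-WT group, at 1.30 ± 0.149 RPKM (SD, n = 2), lay above Tie2-Ezh2-WT at 0.379 ± 0.322 RPKM (SD, n = 3), and both enter the difference of effects.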

How the results depend on the processing

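Bex2, Bex1, Bex4 and Ngfrap1 kept a log2 difference above 0 in both comparisons under all 23 alternatives. In Tie2-Ezh2-KO, Bex2 ran from 1.61 to 1.82, Bex1 from 0.94 to 1.202 and Bex4 from 0.36 to 0.52. Ngfrap1 fell to 0.08 in either comparison without the libraries lacking Y-linked reads, from 0.21 and 0.23, and otherwise ran up to 0.31 and 0.33. In Vav-Ezh2-KO, Bex4 ran from 0.67 to 0.83 and did not pass the threshold (limma adjusted p from 0.0649 to 0.914), while Bex2 ran from 0.45 to 0.75, Bex1 from 0.24 to 0.51, Bex6 from -0.63 to -0.17 and Tceal8 from 0.08 to 0.55. Values that were small beside their spread changed sign. In Tie2-Ezh2-KO this held for Bex6 in 2, Tceal1 in 4 and Tceal8 in 3 of the 23. In Vav-Ezh2-KO it held for Tceal1, at 0.41 with the corresponding WT libraries only and 0.13 without the libraries lacking Y-linked reads, against -0.13. The cause was not tested.

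The count of genes changed in Tie2-Ezh2-KO fell from 386 to 187 with the corresponding WT libraries only and to 145 without the 3 libraries lacking Y-linked reads, both with fewer samples. It rose to 533 with array weights and 493 with all 15 libraries in one fit. It ran from 262 to 438 when each library was left out. The count in Vav-Ezh2-KO, 1 gene (Sva, named because the count is small), was 2 with the corresponding WT libraries only, 2 without the libraries lacking Y-linked reads, and 0 by limma-voom (1197 at an unadjusted p below 0.05). It ran from 1 to 2 when each library was left out, with 2 without Tie2-Ezh2-WT 10, Tie2-Ezh2-WT 12 or Vav-Ezh2-WT 4. No scaling moved the median of all genes by 0.1 or more.

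For the 15 named genes outside the family that passed the threshold, 273 of 344 values kept their side of it and 71 did not, all with the same direction. These genes include Kdelr3 and Sorcs2, for which no test is read. They also include Cenpv, H2-Ab1, Tex40 and Crip2, named for their likeness to Bex2 over the same libraries. The share kept is therefore not read as a measure of how firm the calls are. The Arxes1 call was kept without each library in turn (limma adjusted p from 0.00168 to 0.00943) and lost without the libraries lacking Y-linked reads (log2 difference 1.21 beside 1.30, limma adjusted p = 0.0585). That of Hba-x in Tie2-Ezh2-KO was lost by limma-voom (log2 difference 6.38 beside 6.33, adjusted p = 0.0787). The difference of the knockout effects on Lmo1, 0.55 and not past the threshold, was -0.68 without Vav-Ezh2-WT 6 and ran to 1.78 when other libraries were left out. No paired analysis was possible because each library came from a different embryo and the labels pair no libraries. Depth limits Tceal1, with at most 83 reads in a library.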
